A study of Mus musculus with 23 samples.

Results

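Genes of reactive oxygen production and antioxidant defence were followed across microglia, the resident macrophages of the brain. There were 9, chosen by symbol, of the 53090 in the deposited tables. They were Cybb, Cyba, Ncf1, Ncf4 and Rac2, which encode parts of the phagocyte NADPH oxidase, Sod2, Gpx1 and Txnrd1, which encode antioxidant enzymes, and Nfe2l2, which encodes the transcription factor NRF2. All 9 were among the 18720 genes with enough counts to be tested.

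The microglia came from female C57BL/6 mice labelled young (n = 7), young repopulated (n = 3), old (n = 5) or old repopulated (n = 8), and RNA with poly(A) tails was sequenced in 1 library per sample. In the repopulated groups the microglia had been induced to repopulate the brain. Per the labels, depletion used PLX5622, an inhibitor of the receptor CSF1R on which microglia depend for survival, mixed into AIN-76A chow, and control animals ate the same chow without the drug. The sources used here do not give the ages, the duration of drug feeding or the time between its end and sampling. The protocols describe both magnetic CD11b selection followed by culture and flow-cytometric sorting, and the RNA for the libraries is said to come from sorted cells. The labels do not say whether each library was a separate animal or a pool, and p-values measure only the spread between these libraries, which may be technical.

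The NADPH oxidase of phagocytes passes electrons from NADPH across a membrane to oxygen and so makes superoxide. Cybb encodes its catalytic subunit, known as NOX2, and Cyba the membrane partner that stabilises it, while Ncf1, Ncf4 and the small GTPase Rac2 act from the cytosol when the enzyme is assembled. Superoxide is turned into hydrogen peroxide by superoxide dismutases, such as the mitochondrial enzyme of Sod2, and peroxide is removed by glutathione peroxidases such as that of Gpx1 and by the thioredoxin system, which Txnrd1 keeps reduced. NRF2 switches on many antioxidant genes through a DNA element called the antioxidant response element.

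Promoter sequence is shown for 4 of the genes: Cybb and Cyba, the membrane pair of the oxidase, both of them called in old repopulated against young microglia, and Txnrd1 and Nfe2l2, the members whose windows held the core of the antioxidant response element. Each line gives the 250 bases before a RefSeq start on mouse build GRCm38.p6, written 5′ to 3′ on the strand of the gene, with matches to the core TGACNNNGC on either strand in capitals. Cybb lies on the minus strand, and its window, chrX:9469325-9469574, falls inside the span of the gene in GENCODE M21 on GRCm38 (X, 9435252 to 9487771). The Cyba window is chr8:122432941-122433190 on the minus strand, outside the GENCODE span of the gene (8, 122424776 to 122432930). The window of the second Txnrd1 promoter is chr10:82858956-82859205 on the plus strand, inside the span of the gene (10, 82833951 to 82897712), and that of Nfe2l2 is chr2:75704664-75704913 on the minus strand, outside its span (2, 75675513 to 75704641).
Cybb promoter: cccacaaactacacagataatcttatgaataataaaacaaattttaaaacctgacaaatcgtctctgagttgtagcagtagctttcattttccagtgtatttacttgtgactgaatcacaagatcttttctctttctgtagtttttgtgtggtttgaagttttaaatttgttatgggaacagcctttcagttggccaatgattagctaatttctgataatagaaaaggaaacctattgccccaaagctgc
Cyba promoter: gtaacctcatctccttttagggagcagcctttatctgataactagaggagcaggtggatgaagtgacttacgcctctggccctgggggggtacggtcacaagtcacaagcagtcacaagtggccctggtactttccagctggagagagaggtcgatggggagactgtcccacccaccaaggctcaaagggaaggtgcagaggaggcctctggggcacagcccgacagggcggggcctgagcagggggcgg
Txnrd1 promoter 2: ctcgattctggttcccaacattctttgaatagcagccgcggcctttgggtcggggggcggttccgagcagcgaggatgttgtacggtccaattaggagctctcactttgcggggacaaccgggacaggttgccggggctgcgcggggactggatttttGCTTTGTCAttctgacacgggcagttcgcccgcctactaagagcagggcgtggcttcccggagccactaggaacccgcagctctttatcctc
Nfe2l2 promoter: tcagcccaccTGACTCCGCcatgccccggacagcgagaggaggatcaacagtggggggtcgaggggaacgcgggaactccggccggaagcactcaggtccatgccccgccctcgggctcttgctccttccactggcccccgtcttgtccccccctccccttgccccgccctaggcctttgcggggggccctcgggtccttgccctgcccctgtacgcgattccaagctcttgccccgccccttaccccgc
In Txnrd1 the match GCTTTGTCA, the core read on the opposite strand, lay 92 to 84 bases before the start, and in Nfe2l2 the match TGACTCCGC lay 240 to 232 bases before it. Of all 32841 promoter windows of this length in the table, 10.2% held this core. The RefSeq table had 9 windows for 7 of the 9 genes, without Ncf4 and Rac2. Neither window of the membrane pair held that core, the core GAGGAA bound by ETS factors such as PU.1 (in 23.3% of all windows), or the NF-kappaB core, which is GGGA and TCC with any 3 bases between them (in 3.86%). The window of Sod2 held GAGGAA, another Txnrd1 window held that core at 2 places, and the window of Gpx1 held the NF-kappaB core on the opposite strand. The 3 cores were searched on both strands, and no match overlapped another. A match is a string of letters in a window and says nothing of binding.

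Library totals ran from 43.66 to 58.19 M expected counts, where M is 1000000 counts. The 8 markers of microglia were detected in every library, with summed levels from 24752 to 30280 in young, 21961 to 25475 in young repopulated, 9914 to 24807 in old and 9479 to 27993 counts per M (CPM) in old repopulated libraries. Markers of monocytes, blood cells that also carry NADPH oxidase, were present as well: the 8 of them summed to 49.1 to 339 CPM in young, 187 to 421 in young repopulated, 183 to 2983 in old and 135 to 3712 in old repopulated libraries. Young replicate 3 stood apart from its group with 339 CPM. Libraries were numbered in the sample titles, and numbers 1 to 11 held 3 young, 2 old and 5 old repopulated but no young repopulated libraries. In bulk RNA, a change in the share of cells of one type and a change in RNA per cell cannot be told apart.

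Per unit of transcript length, Gpx1 and Cyba were the most abundant of the 9 genes in young microglia, at means of 689 and 671 transcripts per M (TPM), and their ranges over libraries overlapped. Ncf1 followed at 528 TPM and Nfe2l2 at 348 TPM, and neither range met that of a neighbour in the order. Ncf4 lay at 121 TPM, above Rac2 at 90.3 TPM without overlap. Txnrd1 at 53.3 TPM overlapped both Rac2 and Cybb, which was at 51.3 TPM, and Sod2 was the lowest at 21.8 TPM. Cybb therefore ranked 8 of 9 in young microglia. It ranked 5 in young repopulated (167 TPM), 6 in old (156 TPM) and 5 in old repopulated microglia (177 TPM), while Gpx1, Cyba, Ncf1 and Nfe2l2 held the upper 4 places in every group.

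**Figure D1:**
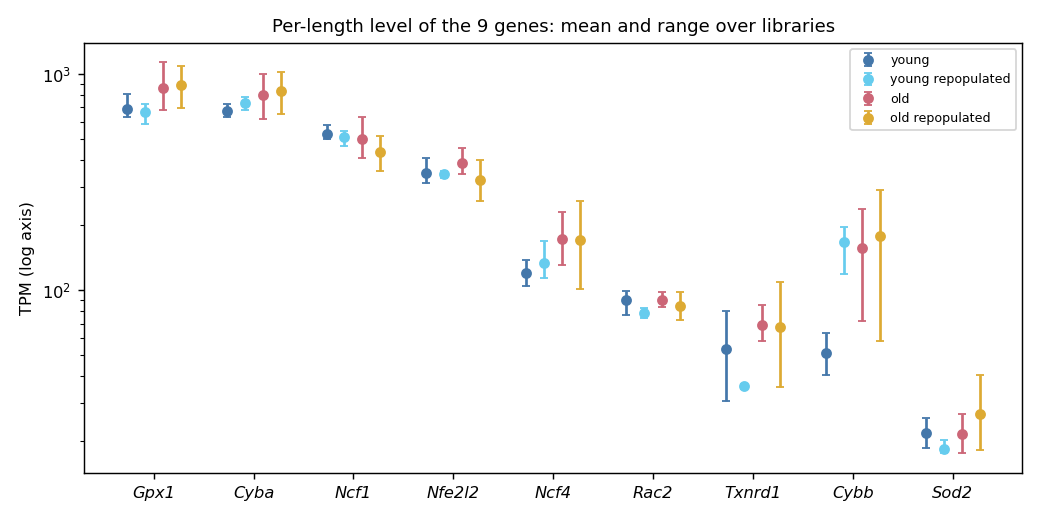
Mean TPM of each of the 9 genes in each group on a log axis; points are group means and bars run from the lowest to the highest library. Cybb moved from 51.3 TPM in young to 156 to 177 TPM in the other groups, whereas Sod2 was the lowest gene in every group.

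Against young microglia, Cybb was the member with the largest change in each group. In TMM-scaled CPM, young libraries ranged from 110.3 to 169 CPM with a median of 136 CPM. Old libraries had 186, 401, 660.4, 279.8 and 588 CPM, so that the lowest old library was above the highest young one. The mean rose from 141 ± 18.2 (SD, n = 7) in young to 423 ± 200.3 CPM (SD, n = 5) in old microglia, a log2 fold change of 1.59 ± 0.307 (SE; edgeR quasi-likelihood test, Benjamini-Hochberg adjusted p = 0.00767). The spread among old libraries was far wider than among young ones. Cybb was the only 1 of the 9 genes called with age, meaning an adjusted p under 0.05, where 2.83% of all genes tested were called, and also the only one whose groups did not overlap, which held for 2.21% of all genes.

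Cybb was also higher after repopulation in young mice. The 3 young repopulated libraries had 537, 567 and 335 CPM, all above every young library. The log2 fold change was 1.77 ± 0.345 (edgeR, adjusted p = 0.0120), from 141 to 479.8 ± 126 CPM (SD, n = 3). Again it was the only member called, against 1.34% of all genes. It was also the only member without overlap, against 12.1% of all genes, so that non-overlap with 3 libraries was common there. The call rested on few libraries: it was lost without young repopulated replicate 1 (log2 1.68, edgeR adjusted p = 0.0830) and without replicate 2 (1.67, edgeR adjusted p = 0.0841).

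In old mice no further rise of Cybb was called after repopulation. Old repopulated libraries ranged from 162 to 843 CPM with a median of 502 CPM and overlapped the old libraries. The log2 fold change was 0.27 ± 0.303, with a 95% interval from -0.35 to 0.90 (edgeR, adjusted p = 0.855). None of the 9 members was called in this comparison, against 0.278% of all genes; 1 of the 9, Sod2, had an unadjusted p under 0.05, as did 10.4% of all genes. Against young microglia, which also serve as the controls of the first 2 comparisons, the old repopulated group was higher by 1.86 ± 0.285 in log2 (edgeR, adjusted p = 0.000429). The lowest old repopulated library, replicate 1 at 162 CPM, fell within the range of the young libraries, whose highest was 169 CPM. Old repopulated and young repopulated microglia differed by 0.09 ± 0.358 in log2 (95% interval -0.65 to 0.84; edgeR, adjusted p = 0.938).

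Whether repopulation acted on Cybb differently in the 2 ages was tested as an interaction, the effect in old mice minus the effect in young ones. It came to -1.49 ± 0.460 in log2 with an unadjusted p of 0.00359, and did not pass adjustment over all genes (edgeR, adjusted p = 0.423). No gene passed in this contrast (0% of 18720), while 1542 genes, or 8.24%, had an unadjusted p under 0.05. Cybb and Sod2 were the members among them. In a fit of library numbers 12 to 24 alone, the Cybb interaction was -1.49 (edgeR, adjusted p = 0.0323), where 8.87% of all genes were called.

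**Figure D2:**
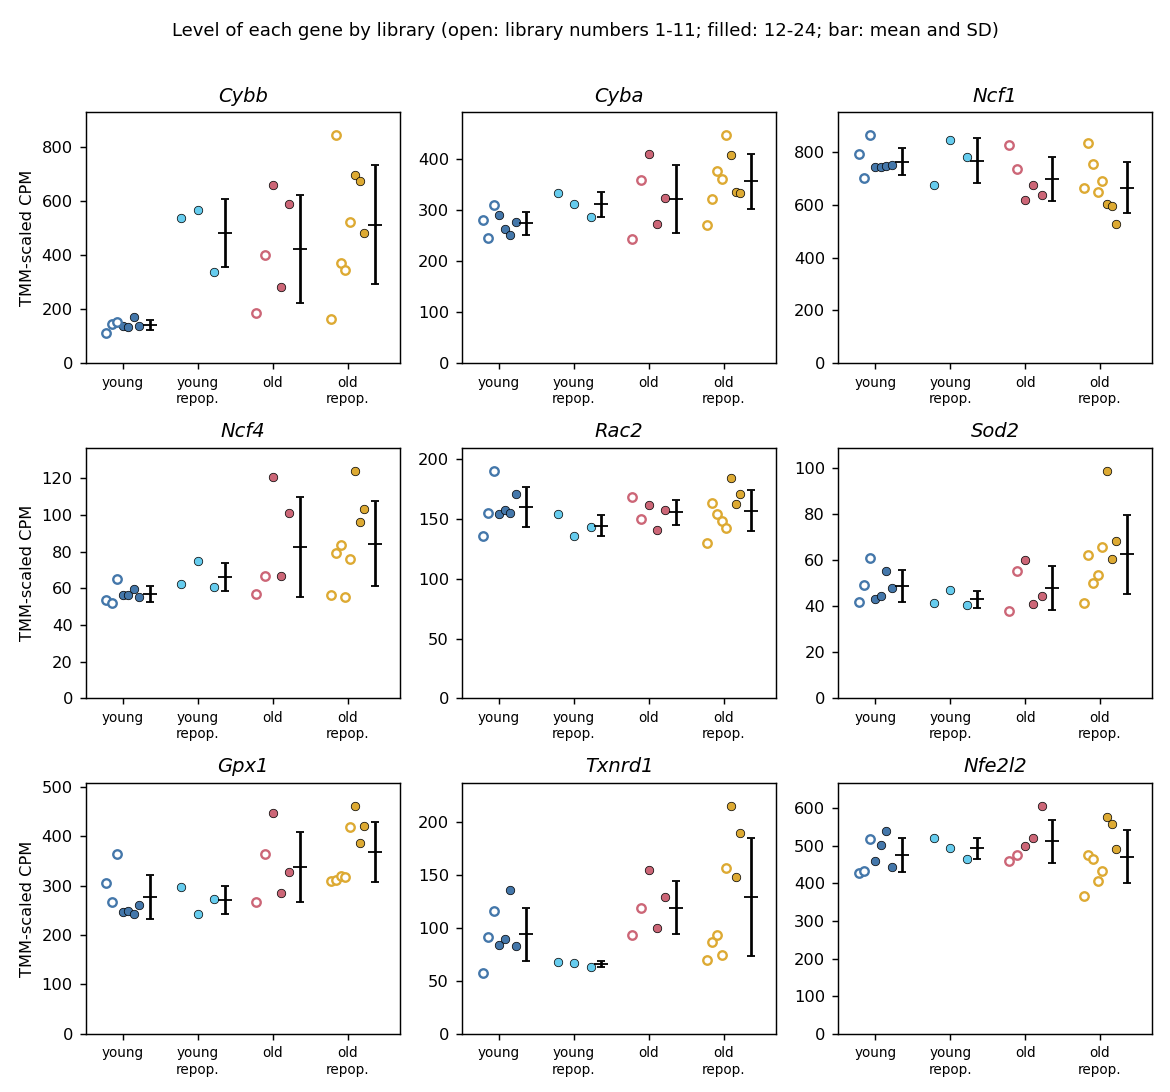
TMM-scaled CPM of each gene in each library by group, with open points for library numbers 1 to 11, filled points for 12 to 24, and the mean with its SD at the right of each group. For Cybb the 7 young libraries lie between 110.3 and 169 CPM, below all old and young repopulated libraries, while the groups overlap for Rac2 and Nfe2l2.

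Monocyte markers moved with Cybb in the age comparison: 6 of the 8 were called higher in old than in young microglia, with a median log2 fold change of 3.71, as were 4 of the 10 neutrophil markers and 1 of the 6 of border-associated macrophages, and 1 of the 8 microglial markers was lower. In young repopulated against young microglia none of the 8 monocyte markers was called, at a median of 1.44. Of the 6 border-associated macrophage markers 1 was called higher, at a median of 1.24. Their sums were 46.5 to 145 CPM in young and 213 to 300 CPM in young repopulated libraries, without overlap. Across the 23 libraries Cybb ranked much as the monocyte sum did, with a Spearman's rho of 0.83, given as a description since libraries share group and cell makeup. The 5 old libraries stood in the same order for both, as did the 3 young repopulated ones, and over the 8 old repopulated libraries rho was 0.67. Some libraries stood off this order. Young replicate 3 had a monocyte sum of 339 CPM with 153 CPM of Cybb, whereas young repopulated replicate 3 had a sum of 187 CPM with 335 CPM of Cybb. Old repopulated replicate 2, the highest in Cybb at 843 CPM, had a sum of 402 CPM, and old repopulated replicate 6, the highest in the sum at 3712 CPM, had 695 CPM of Cybb. Markers of border-associated macrophages summed to 572 CPM in old repopulated replicate 2, in a group that ran from 48.8 to 617 CPM. The library at 617 CPM, old repopulated replicate 8, had 481 CPM of Cybb. In young repopulated replicate 3 these markers summed to 213 CPM. Without young replicate 3 the Cybb change was 1.61 with age (edgeR, adjusted p = 0.00815), and without old replicate 3, whose monocyte sum was 2983 CPM, it was 1.37 (edgeR, adjusted p = 0.0482). The part of these other cells in the Cybb result was not tested.

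**Figure D3:**
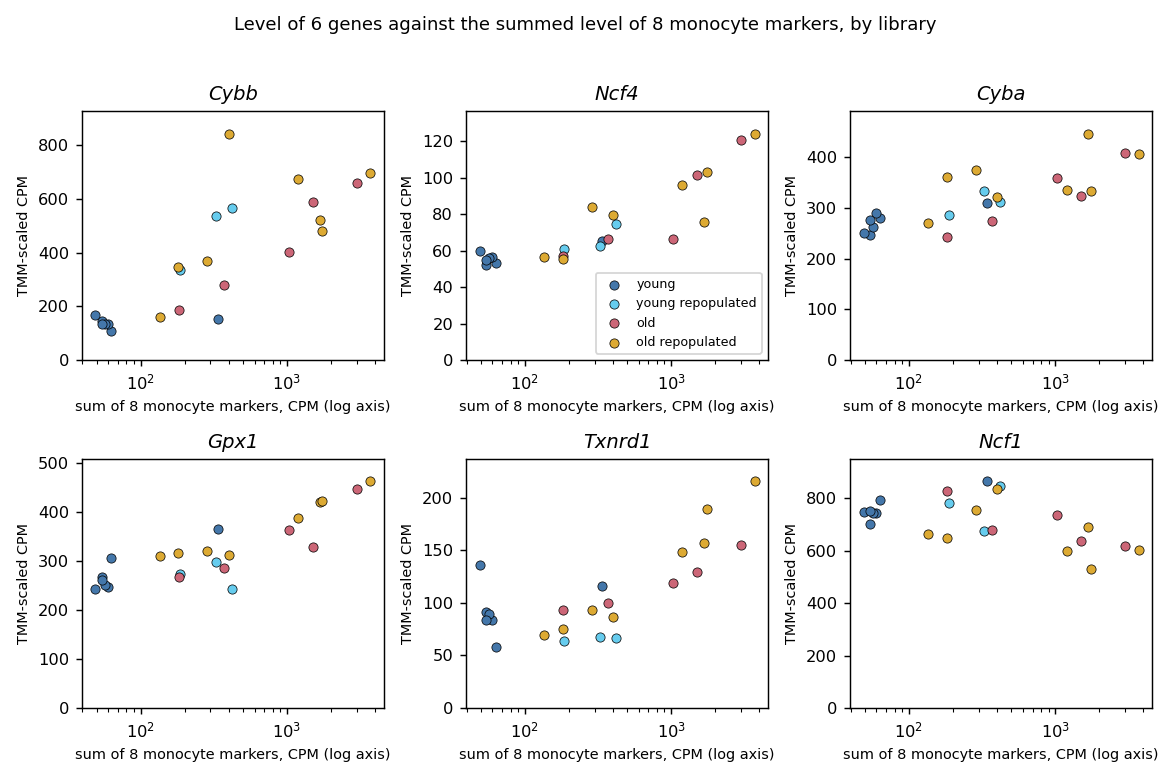
TMM-scaled CPM of Cybb, Ncf4, Cyba, Gpx1, Txnrd1 and Ncf1 (vertical axes) against the summed CPM of 8 monocyte markers (horizontal log axes), 1 point per library coloured by group. Young replicate 3 is the dark blue point at 339 CPM of markers, where Cybb was 153 CPM, and the highest Ncf4 value, 124 CPM, belongs to the library with the highest sum, 3712 CPM.

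Against young microglia, the changes of Cyba, the membrane partner of the catalytic subunit, lay nearer 0 than those of Cybb; the difference between the 2 genes was not tested. Cyba ranged from 246 to 309 CPM in young libraries (median 277 CPM). It was 242, 359, 409, 274 and 324 CPM in old libraries and 334, 313 and 287 CPM in young repopulated ones, and both sets overlapped the young range. The log2 fold changes against young microglia were 0.23 ± 0.120 with age (edgeR, adjusted p = 0.373) and 0.18 ± 0.141 after repopulation in young mice (edgeR, adjusted p = 0.598). In old repopulated libraries Cyba ranged from 269.7 to 447 CPM (median 348 CPM), and it rose by 0.38 ± 0.107 over young microglia (edgeR, adjusted p = 0.0200). This was the only call for Cyba. It was 1 of 4 members called between old repopulated and young microglia, the others being Cybb, Ncf4 and Gpx1, all higher; 15.2% of all genes were called in that comparison and 9.29% were called higher. The difference was 0.15 between old repopulated and old microglia (edgeR, adjusted p = 0.754) and 0.20 between the repopulated groups (edgeR, adjusted p = 0.563). Cyba ranked the libraries with a rho of 0.75 to the monocyte sum.

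Of the cytosolic subunits, Ncf4, which encodes p40phox, was the one that rose. Young libraries held 52.1 to 65.3 CPM (median 56.1 CPM) and old libraries 56.9, 66.6, 121, 66.6 and 101 CPM. Old replicates 3 and 5 were well above the other 3, and the groups overlapped. The difference with age was 0.53 ± 0.183 in log2 and did not pass (unadjusted p = 0.00788; edgeR, adjusted p = 0.131), although without old replicate 1 it was 0.67 (edgeR, adjusted p = 0.0427). Old repopulated libraries ranged from 55.2 to 124 CPM (median 81.7 CPM), a rise over young microglia of 0.57 ± 0.165 (edgeR, adjusted p = 0.0231). That call was lost without old repopulated replicate 6 (edgeR, adjusted p = 0.0570) or replicate 8 (edgeR, adjusted p = 0.0501), the libraries with the first and second highest monocyte sums of that group. Over all 23 libraries Ncf4 had a rho of 0.91 to the monocyte sum, and the part of those cells in its rise was not tested. Young repopulated libraries held 62.4, 74.7 and 60.9 CPM, a difference of 0.21 ± 0.216 (edgeR, adjusted p = 0.713). Old repopulated microglia differed from old ones by 0.03 (edgeR, adjusted p = 0.985) and from young repopulated ones by 0.35 (edgeR, adjusted p = 0.509).

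Ncf1, which encodes the organiser subunit p47phox, was not called in any of the 6 contrasts of the main fit. Among the alternative settings it was called between old repopulated and young microglia in 3 of 11, each time lower. Between the repopulated groups it was called in 1 of 10, also lower. Its libraries ranged from 702 to 864 CPM in young (median 748 CPM) and from 528 to 835 CPM in old repopulated microglia (median 655 CPM). Old libraries held 826, 737, 619, 677 and 638 CPM and young repopulated ones 676, 845 and 781 CPM. Both overlapped the young range. The log2 difference between old repopulated and young microglia was -0.20 ± 0.0909, opposite in sign to those of Cybb, Cyba and Ncf4, with a 95% interval from -0.39 to -0.01 (edgeR, adjusted p = 0.138). It was -0.13 with age (edgeR, adjusted p = 0.620), 0.01 in young repopulated against young (edgeR, adjusted p = 0.987), -0.07 in old repopulated against old (edgeR, adjusted p = 0.896) and -0.21 between the repopulated groups (edgeR, adjusted p = 0.475).

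Rac2, the GTPase of the complex in blood-derived phagocytes, was not called in any contrast. Young libraries ranged from 136 to 190.5 CPM (median 155 CPM) and old repopulated ones from 129.7 to 184 CPM (median 158 CPM). Old libraries held 168, 149.8, 162, 141 and 157 CPM, and young repopulated ones 154, 136 and 143 CPM. The log2 difference with age was -0.04, with a 95% interval from -0.22 to 0.14 (edgeR, adjusted p = 0.892). After repopulation it was -0.15 in young mice (edgeR, adjusted p = 0.552) and 0.01 in old mice (95% interval -0.16 to 0.19; edgeR, adjusted p = 0.990).

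**Figure D4:**
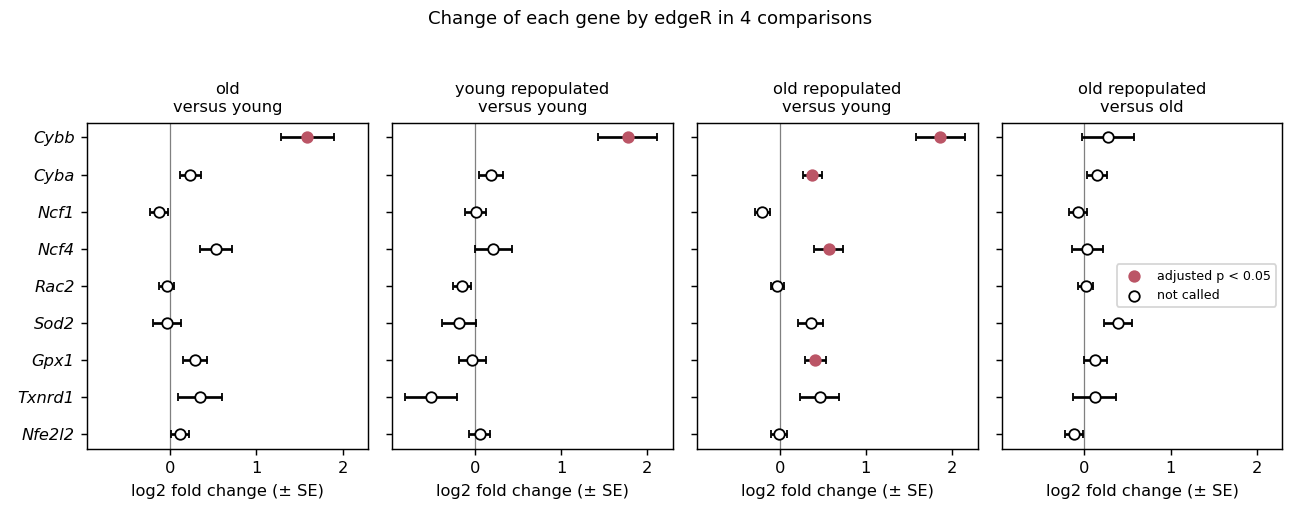
Log2 fold change with its SE for each of the 9 genes in 4 comparisons by edgeR, filled where the adjusted p was under 0.05. Cybb is filled in the 3 comparisons against young (1.59, 1.77 and 1.86), Cyba, Ncf4 and Gpx1 only in old repopulated against young, and no gene in old repopulated against old.

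Sod2, the mitochondrial dismutase, was not called in any of the 6 contrasts of the main fit. Young libraries ranged from 41.7 to 61.1 CPM (median 47.8 CPM), and old libraries held 38.2, 55.5, 60.1, 40.9 and 44.5 CPM. Young repopulated libraries held 41.4, 47.2 and 40.5 CPM. Old repopulated libraries reached further up, from 41.3 to 99.0 CPM (median 61.5 CPM), with replicate 6 alone above 70 CPM, but the lower ones lay within the other groups. Replicate 6 also had the highest monocyte sum, 3712 CPM. Sod2 had a Spearman's rho to that sum of 0.95 over the 8 old repopulated libraries and of 0.53 over all 23. The part of those cells in the Sod2 values was not tested. The log2 differences were -0.03 with age (edgeR, adjusted p = 0.961), 0.39 ± 0.159 between old repopulated and old (edgeR, adjusted p = 0.349), -0.18 in young repopulated against young (edgeR, adjusted p = 0.724), 0.36 ± 0.143 in old repopulated against young (edgeR, adjusted p = 0.0914) and 0.54 ± 0.192 between the repopulated groups (edgeR, adjusted p = 0.382).

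Gpx1, a selenium-containing enzyme that reduces hydrogen peroxide, rose in old repopulated microglia. Those libraries ranged from 310.5 to 462 CPM (median 354 CPM), against 243 to 365 CPM in young ones (median 261 CPM). The rise was 0.41 ± 0.121 in log2 (edgeR, adjusted p = 0.0243) with overlap of the groups. The 4 old repopulated libraries with monocyte sums from 1194 to 3712 CPM held 387 to 462 CPM of Gpx1. The 4 with sums from 135 to 402 CPM held 310.5 to 321 CPM. These 4 lay within the young range only through young replicate 3, at 365 CPM. The next highest young library, replicate 1, held 307 CPM. The part of monocytes in the rise was not tested. The call was lost when any of 4 libraries was left out: young replicate 4 (edgeR, adjusted p = 0.0521) or 6 (0.0522), or, in the old repopulated group, replicate 6 (0.0564) or 8 (0.0506). Old libraries held 267, 364, 447, 286 and 329 CPM, 0.29 ± 0.136 above young in log2 (edgeR, adjusted p = 0.308), and old repopulated libraries were 0.12 above old ones (edgeR, adjusted p = 0.843). Young repopulated libraries, at 297, 242 and 274 CPM, lay within the young range (log2 -0.03; edgeR, adjusted p = 0.960).

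Txnrd1, which encodes cytosolic thioredoxin reductase, was not called in any contrast, and the largest of its differences lay between the 2 repopulated groups. Young libraries ranged from 57.6 to 135 CPM (median 89.4 CPM), and the 3 young repopulated libraries held 67.8, 66.7 and 63.2 CPM. The only young library below these 3 was replicate 1, at 57.6 CPM. The next lowest young library, replicate 7, held 83.3 CPM. Old libraries held 93.1, 119, 155, 99.6 and 129 CPM. Old repopulated libraries ranged from 69.7 to 215 CPM (median 121 CPM), with 4 of the 8 below 94 and 4 above 148 CPM. No Txnrd1 difference passed: 0.35 ± 0.250 with age (edgeR, adjusted p = 0.565), -0.51 ± 0.304 in young repopulated against young (edgeR, adjusted p = 0.461), 0.12 in old repopulated against old (edgeR, adjusted p = 0.946) and 0.46 ± 0.224 in old repopulated against young (edgeR, adjusted p = 0.165).

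All 8 old repopulated libraries had more Txnrd1 than the 3 young repopulated ones, a difference of 0.97 ± 0.308 in log2 with a 95% interval from 0.33 to 1.61. The unadjusted p was 0.00450 and the edgeR adjusted p 0.380. No gene was called between the repopulated groups (0%), while 2183 genes, or 11.7%, had an unadjusted p under 0.05, 3 members among them: Txnrd1, Sod2 and Gpx1. Gpx1 also had no overlap there (0.44 ± 0.162; edgeR, adjusted p = 0.387), so that 2 of the 9 genes were higher without overlap, as were 1.21% of all genes. With the run of library numbers as a term the Txnrd1 difference was 1.22 (edgeR, adjusted p = 0.0318; 4.52% of all genes called). Within library numbers 12 to 24 it was 1.46 (edgeR, adjusted p = 0.000534), where 36.3% of all genes were called. The 3 old repopulated libraries of that run had monocyte sums from 1194 to 3712 CPM, against 135 to 1669 CPM in the 5 of numbers 1 to 11. The 4 old repopulated libraries above 148 CPM had monocyte sums from 1194 to 3712 CPM and the 4 others sums from 135 to 402 CPM; the part of those cells in the Txnrd1 difference was not tested. The Txnrd1 interaction was 0.63 ± 0.390 (edgeR, adjusted p = 0.732).

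Nfe2l2 transcripts, which encode the factor NRF2, were not called in any contrast, and the groups overlapped. Young libraries ranged from 427 to 541 CPM (median 458 CPM) and old repopulated ones from 365 to 576 CPM (median 470.1 CPM). Old libraries held 459, 474, 499.8, 522 and 606 CPM, and young repopulated ones 521, 494 and 464 CPM. The log2 differences were 0.11 with age (95% interval -0.11 to 0.33; edgeR, adjusted p = 0.690), -0.12 in old repopulated against old (edgeR, adjusted p = 0.779) and 0.05 in young repopulated against young (edgeR, adjusted p = 0.895). Between the repopulated groups the difference was -0.06 (edgeR, adjusted p = 0.852). NRF2 is controlled largely through the stability of the protein, which RNA does not measure.

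Comparisons within the 2 runs of library numbers differed. The runs also differed in monocyte sums. In old repopulated libraries these were 135 to 1669 CPM in numbers 1 to 11 and 1194 to 3712 CPM in numbers 12 to 24. In old libraries they were 183 to 1033 CPM and 372 to 2983 CPM. Young libraries went the other way, with 63.1, 54.5 and 339 CPM in numbers 1 to 11 and 49.1 to 60.0 CPM in numbers 12 to 24. The part of those cells in the difference between runs was not tested. Among numbers 1 to 11, the Cybb change with age was 1.101 (edgeR, adjusted p = 1), where 1 of 18746 genes was called (0.00533%), and no member was called there in any comparison; between old repopulated and young microglia 0.0107% of all genes were. Among numbers 12 to 24 the Cybb changes were 1.83 with age (edgeR, adjusted p = 0.000758), 1.77 in young repopulated against young (edgeR, adjusted p = 0.00210; 9.3% of all genes called) and 2.11 in old repopulated against young (edgeR, adjusted p = 0.000108). Called members numbered 3 with age there, against 15.7% of all genes, 1 between old repopulated and old, which was Sod2, against 12.7%, and 7 between old repopulated and young, against 41.1%. These counts take calls of either sign. Ncf1 was lower in old repopulated than in young microglia in all 11 alternative settings (log2 -0.365 to -0.127). With age and between old repopulated and young microglia the sign of the Cybb change was the same in both runs. With limma voom and sample quality weights in place of edgeR, more members and more of all genes were called: 3 members with age against 12.6% of all genes, 7 between old repopulated and young against 35.5%, and 4 between the repopulated groups against 17% of all genes.

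Over all 9 members the median log2 fold change was 0.23 with age against -0.01 over all genes tested, 0.12 against 0.00 between old repopulated and old, 0.01 against -0.04 between young repopulated and young, and 0.38 against -0.02 between old repopulated and young. Among the 9, Cybb and Ncf4 ranked the libraries most alike (Spearman's rho 0.85 over 23 libraries), Cybb and Cyba had a rho of 0.70, and Cybb and Ncf1 one of -0.39. The lowest was -0.55, between Ncf1 and Gpx1. These values describe libraries that share age, treatment and cell makeup.

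Of the other genes of the oxidase, 18 were listed. Of these, 11 had enough counts to be tested, while Nox1, Nox3, Nox4, Noxa1, Duox1, Duox2 and Duoxa2 did not. None was called with age (2.83% of all genes), or after repopulation in young mice (1.34%) or old mice (0.278%). Rac1, a GTPase related to that of Rac2, had means of 468 ± 18.1 CPM in young, 468 ± 9.55 in young repopulated, 441 ± 27.0 in old and 494 ± 40.3 CPM in old repopulated microglia. Between old repopulated and young microglia 2 of the 11 were called, or 18.2%, beside 15.2% of all genes. Arhgdib, an inhibitor that holds small GTPases in the cytosol, rose by 0.35 (edgeR, adjusted p = 0.0252), a call lost without old repopulated replicate 6 (adjusted p = 0.0581) or 8 (0.0513), which had the highest monocyte sums. Duoxa1, a maturation factor of another oxidase, was lower by a log2 change of -2.36 at very low levels (0.233 against 1.21 CPM; edgeR, adjusted p = 0.0464). Of the 4 other dismutase and catalase genes, Ccs, the copper chaperone of Sod1, was the only one called in any contrast of the main fit. It fell by 0.24 in old repopulated against young (edgeR, adjusted p = 0.0419). The calls of Ccs and Duoxa1 held in only 6 and 9 of 23 fits that each left out 1 library.

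In the glutathione list, 13 genes were tested with age. Of these, 3 were called higher in old than in young microglia and none lower, beside 2.6% of all genes called higher. Mgst1, a membrane glutathione transferase, rose by 3.02 ± 0.630 in log2 from 2.08 to 16.9 CPM (edgeR, adjusted p = 0.0110), Slc7a11, the cystine importer that feeds glutathione synthesis, by 2.36 ± 0.589 from 3.65 to 18.8 CPM (edgeR, adjusted p = 0.0306), and Gstm1, a cytosolic transferase, by 1.87 ± 0.306 from 3.56 to 13.03 CPM (edgeR, adjusted p = 0.00367). Close relatives of Gstm1 make the division of its reads uncertain. The median of the 13 was 0.25. Gstm1 alone of the 13 was also called in young repopulated against young microglia, at 1.55 ± 0.344 (edgeR, adjusted p = 0.0268), beside 0.828% of all genes called higher. That call was lost without young repopulated replicate 1 (1.04; edgeR, adjusted p = 0.304), young repopulated replicate 2 (1.75; 0.0564) or young replicate 7 (1.51; 0.0533), and with the length offset (1.17; 0.113).

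Against young microglia, 6 of the 13 glutathione genes were called higher in the old repopulated group and none lower, beside 9.29% of all genes called higher. The largest were Slc7a11 at 2.89 (edgeR, adjusted p = 0.00215), Mgst1 at 2.88 (0.00323), Gstm1 at 1.83 (0.000453) and Gsr, glutathione reductase, at 1.24 (0.0133). The levels of Mgst1 were uneven within groups: young replicate 3, with the high monocyte sum, held 8.07 CPM against 0.792 to 1.73 CPM in the other 6 young libraries. Slc7a11 in the old repopulated libraries ran from 5.27 to 79.2 CPM. The rises of Slc7a11 and Mgst1 with age were called in 15 and 22 of the 23 fits without 1 library. Both were lost without old replicate 3 (edgeR, adjusted p = 0.167 and 0.0575), which had the highest monocyte sum of the old group, and Slc7a11 also without old replicate 5 or any young replicate but the third.

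In the thioredoxin and peroxiredoxin list of 12, Prdx6, a peroxidase that also acts on phospholipids, was the 1 gene called with age, beside 2.83% of all genes. It rose by 1.24 ± 0.336 (edgeR, adjusted p = 0.0463), and this call held in only 7 of 23 fits without 1 library. Prdx4, the peroxiredoxin of the secretory pathway, was the 1 gene called in young repopulated against young microglia. It fell from 76.5 ± 7.52 to 51.6 ± 0.422 CPM, by 0.57 ± 0.143 in log2 (edgeR, adjusted p = 0.0488), and this held in 6 of 23 such fits; 0.513% of all genes were called lower. In old repopulated against young, 4 were called higher and 1 lower, where 9.29% of all genes were called higher and 5.92% lower. These were Prdx6 at 1.38 (edgeR, adjusted p = 0.00532), Txn1, the cytosolic substrate of Txnrd1, at 1.16 (0.0111), Prdx1 at 0.81 (0.0114), mitochondrial Txn2 at 0.44 (0.0198) and Prdx4 at -0.34 (0.0316), the last called in 16 of 23 fits without 1 library. Txn1 and Prdx1 have processed pseudogenes that can take some of their reads.

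Of the 12 other NRF2 regulators and targets, 2 were called with age, both higher, beside 2.6% of all genes called higher. Osgin1, an oxidative stress response gene, rose by 0.99 ± 0.193 (edgeR, adjusted p = 0.00769) and Fth1, the ferritin heavy chain, by 0.80 ± 0.186 (edgeR, adjusted p = 0.0201). Without old replicate 3 neither was called (Osgin1 0.83, edgeR adjusted p = 0.0521; Fth1 0.61, 0.138), nor was Fth1 without old replicate 5 (0.73, 0.0720); these libraries had the first and second highest monocyte sums of the old group. None was called in young repopulated against young, beside 1.34% of all genes. In old repopulated against young, 5 were called higher and none lower, beside 9.29% of all genes called higher. These were Fth1 at 0.90 (edgeR, adjusted p = 0.00163), Hmox1, haem oxygenase, at 0.89 (0.0174), Blvrb, biliverdin reductase B, at 0.78 (0.00235), Ftl1, the ferritin light chain, at 0.65 (0.0126) and Osgin1 at 0.63 (0.0176). Ferritin pseudogenes make the Fth1 and Ftl1 counts uncertain. Keap1, which targets NRF2 for degradation, was at 40.2 ± 4.67, 43.0 ± 2.19, 43.6 ± 1.89 and 41.2 ± 2.93 CPM in young, young repopulated, old and old repopulated microglia and was not called.

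Of 9 genes listed under NADPH supply, none was called with age (2.83% of all genes) or in young repopulated against young (1.34%). In old repopulated against young microglia 5 were called higher, beside 9.29% of all genes called higher. These were Idh1 at 0.56 (edgeR, adjusted p = 0.04995, just under the threshold and kept in only 5 of 23 fits without 1 library), and 4 enzymes of the pentose phosphate pathway: G6pdx at 0.55 (0.00542), Taldo1 at 0.54 (0.0200), Tkt at 0.53 (0.00533) and Pgd at 0.45 (0.00549). G6pdx went from 59.7 ± 7.14 to 87.2 ± 18.8 CPM. No gene of any of the 6 lists was called between old repopulated and old microglia, where 0.278% of all genes were called. In the old repopulated group 7 of the 8 monocyte markers were higher than in young (median 3.67), as were 4 of the 10 neutrophil and 4 of the 6 border-associated macrophage markers, and 4 of the 8 microglial markers were lower; the part of these cells in the changes of the lists was not tested. Within library numbers 1 to 11 none of the list genes named here was called. Of all genes, 0.00533% were called there with age and 0.0107% in old repopulated against young.

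**Figure D5:**
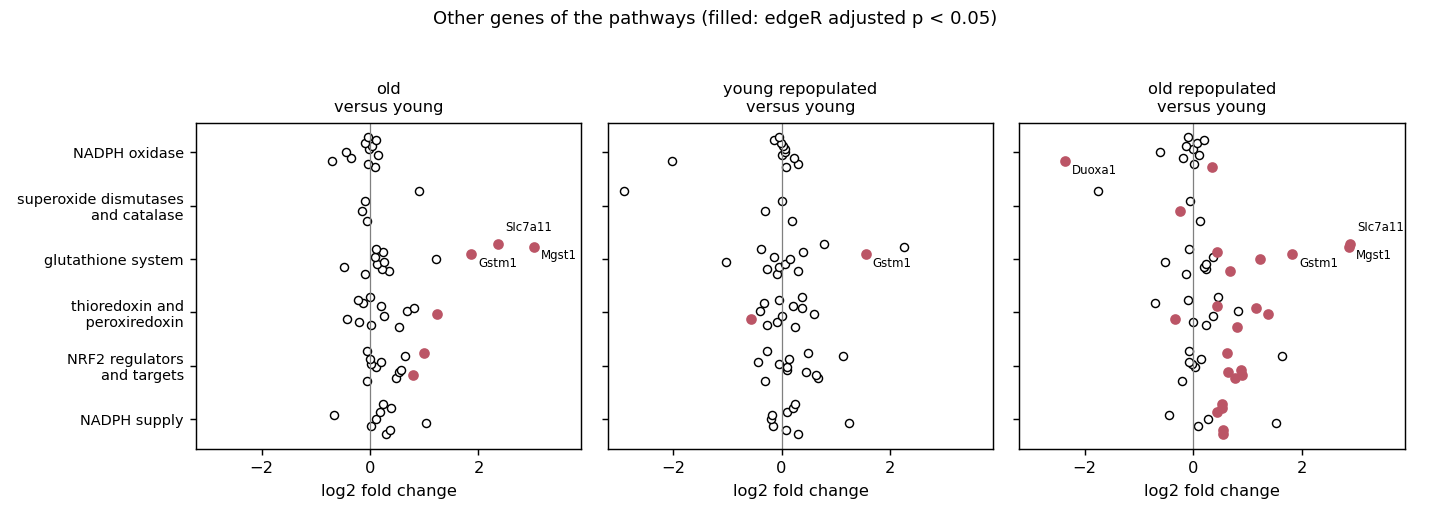
Log2 fold change of each other gene of the 6 lists in 3 comparisons, 1 point per gene, filled where the edgeR adjusted p was under 0.05. The glutathione genes Mgst1 (3.02), Slc7a11 (2.36) and Gstm1 (1.87) lie furthest to the right with age, and the oxidase gene furthest from 0 in old repopulated against young is Duoxa1 at -2.36.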

How the data were processed

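RNA with poly(A) tails was sequenced in 23 libraries; per the labels' protocols the kit was stranded. Per the submitters' processing notes, STAR, RSEM, limma and FastQC 0.11.5 were used with build GRCm38; for roles and other versions, not given in the sources used here, nothing is assumed. The authors deposited 1 table per library with expected counts (estimated counts that need not be whole) and TPM for 53090 genes, per the file headers; within 1e-06, 87.26% of the expected counts were whole. The deposited expected counts were rounded and tested in R 4.3.3 with edgeR 4.0.16: filterByExpr (18720 genes), TMM, 1 coefficient per labelled group over all 23 libraries, glmQLFit and glmQLFTest, Benjamini-Hochberg adjustment over all genes tested, called under 0.05. CPM values were TMM-scaled, and the deposited TPM served only for levels between genes. Totals of 43.66 to 58.19 M counts per library make counting error small beside the spread between libraries. No 2 libraries held identical values. The effective lengths in the tables entered 1 alternative.

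The members and the gene lists were chosen with earlier results of these data known. The text names all 9 members, up to 4 called genes with the largest change per list and comparison, and for each member the 3 genes with the highest Spearman correlation over the libraries, among 9475 genes averaging 5 CPM or more. Pgd, and Prdx4 and Osgin1 in old repopulated against young, fall outside that rule and were added after their values were seen, as were Rac1 and Keap1. Some genes of the lists are not reported here. Identifiers carried the GENCODE M21 version for 6 of the 9 members, and coordinates come from there. For Gstp1 and Txnrd2, which stood on 2 identifiers each, the one with more counts was used. Alternatives were RLE and upper-quartile factors, no filter, a mean CPM of at least 5, DESeq2 1.42.0, voom with sample quality weights (limma 3.58.1), only the groups compared, the run of library numbers as a term or fitted apart, a length offset, and leaving out each library. The procedure was tested on simulated data.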

Additional observations from a re-analysis of the deposited data

Results flagged for a closer look

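Within each group of 4 to 10 libraries, 93 sets of values of the genes with printed changes were searched for a library far from the rest (Dixon's ratio at the 95% level), and 9 had one. Chance gives about 1 in 20 for independent, normally distributed sets. These sets share libraries, so the number flagged cannot be judged by that rate. For the 9 members 1 of 27 sets had one: Sod2 in old repopulated replicate 6 was 99.0 CPM, against 41.3 to 68.3 CPM in the other 7. Young replicate 3 stood apart for 6 other genes, with Mgst1 at 8.07, Arhgdib at 310.1, Gsr at 31.7, Txn1 at 53.8, Hmox1 at 160.2 and Tkt at 226 CPM, each the highest young library. The same library had the highest monocyte marker sum of the young group, 339 CPM. Hmox1 was 267 CPM in old replicate 3, against 117 to 154 CPM in the other old libraries. Blvrb was 46.2 CPM in old repopulated replicate 2, the library with the highest Cybb, against 16.03 to 29.3 CPM in the other 7.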

How the results depend on the processing

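Calls of either sign were counted here. The number of members called was 1 with age, 0 in old repopulated against old, 1 in young repopulated against young, 4 in old repopulated against young, and 0 between the repopulated groups and for the interaction. With voom these became 3 with age (12.6% of all genes), 7 in old repopulated against young (35.5%) and 4 between the repopulated groups (17%). With the run of library numbers as a term 1 was called between the repopulated groups (4.52% of all genes). In library numbers 1 to 11 alone 0 were called with age (0.00533% of all genes) and 0 in old repopulated against young (0.0107%). In numbers 12 to 24 alone the counts were 3 with age (15.7% of all genes), 1 in old repopulated against old (Sod2, log2 0.65; edgeR adjusted p = 0.0340; 12.7%), 7 in old repopulated against young (41.1%), 6 between the repopulated groups (36.3%) and 2 for the interaction (8.87%); the cause of the difference between runs was not tested. Leaving out 1 library at a time gave 1 to 2 with age (0.536% to 5.06% of all genes), 0 to 1 in young repopulated against young (0.166% to 2.19%), 2 to 5 in old repopulated against young (10.5% to 25.7%), and 0 to 0 in each of the other 3 (at most 0.995%).

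The sign of some small changes turned. With age, Sod2 was 0.0336 in numbers 12 to 24; without 1 library it ran from -0.127 to 0.0651 and Rac2 from -0.0744 to 0.00807. In old repopulated against old, Rac2 was -0.00144 with upper-quartile factors, -0.0106 at a mean CPM of at least 5 and -0.0992 in numbers 1 to 11, where Txnrd1 was -0.137; without 1 library Rac2 ran from -0.0240 to 0.0529, Ncf4 from -0.0772 to 0.211 and Txnrd1 from -0.0280 to 0.229. In young repopulated against young, Ncf1 was -0.0203 with upper-quartile factors, -0.0161 at a mean CPM of at least 5 and -0.00103 with the length offset, Gpx1 was 0.121 with voom and 0.148 in numbers 12 to 24, and Nfe2l2 was -0.0396 with the library term; without 1 library Ncf1 ran from -0.0310 to 0.0899 and Gpx1 from -0.101 to 0.0826. Between the repopulated groups Cybb ran from -0.108 to 0.235. No paired analysis was run, since the sample labels used here name no pairing of libraries between groups.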

Other observations

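The genes whose log2 CPM ranked the 23 libraries most like each member, among 9475 genes, were described without a test, since libraries share age, treatment and cell makeup. For Cybb they were Itgal (Spearman's rho 0.96) and Itga4 (0.95), which encode the integrin chains alpha L and alpha 4 of leukocytes, and Jag1 (0.94), a Notch ligand. For Ncf4 they were Cytip (0.96), Pfkp (0.95) and Trps1 (0.95), and for Cyba Tmem205 (0.93), Uap1l1 (0.91) and Ostm1 (0.91). Txnrd1 was matched at a rho of 0.93 by Sra1, Stx11 and Srxn1, the last of which encodes sulfiredoxin, an enzyme that repairs peroxiredoxins. Sod2 was closest to Strap (0.93), Snx4 (0.92) and Metap2 (0.90), and Gpx1 to Eif6, Gtf2b and Atp6v0e (each 0.92). Ncf1 was closest to Rcsd1 (0.89), Sh2b3 (0.87) and Osbpl11 (0.87). The values were lower for Rac2, with Ufsp2 (0.83), Csnk1a1 (0.81) and Cfap36 (0.79), and for Nfe2l2, with Prdm1 (0.80), Scyl2 (0.76) and Hspa8 (0.75).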
